A study of Mus musculus with 48 samples.

Results

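Hippocampus from control (Ctrl) mice killed 7 days after their last chamber session was compared with hippocampus from Ctrl mice killed 72 hours after it, over every probe set of a mouse expression array. The 12 mice, 6 at each time, were all mice of these 2 groups among the 48 of the hippocampal series, and each mouse gave 1 array. All were adult male C57BL/6J mice that had sat in air-filled inhalation chambers for 16 h a day over 4 days. They had 4 such cycles with 7 days outside between cycles. All had received saline with the alcohol dehydrogenase blocker pyrazole (1 mmol/kg) ahead of the chambers. The ethanol-exposed (CIE) mice of the series, used below only to show where the control comparison differed, had ethanol vapor at 10 to 13 mg/l and ethanol at 1.6 g/kg with the same pyrazole dose. The comparison therefore holds no ethanol: it asks what differed between control brains taken at the 2 times, against which the CIE groups of the same times were read. Different mice were killed at each time, so no animal was followed. Values are log2 RMA values (a robust average over the probes of a probe set), and a difference is the 7 d mean minus the 72 h mean on that scale with its standard error (SE).

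Whole hippocampus holds granule cells of the dentate gyrus, pyramidal cells of CA1 to CA3, interneurons, glia, microglia and vessels, so each value is an average over these cells. Fewer cells of a type and less RNA per cell cannot be told apart in such tissue. As background to the genes that stood out below, MHC class I molecules carry peptides from inside a cell to its surface, where T cells and natural killer cells read them. The class I heavy chain needs B2m as its light chain, the immunoproteasome and the TAP transporter supply its peptides, and Nlrc5 switches the genes of this pathway on. Interferons raise most of these genes together with a wider set of antiviral genes, the interferon-stimulated genes. A probe set was called at a Benjamini-Hochberg adjusted p of 0.01 or less in a limma fit of all 48 arrays, with p-values adjusted over 45037 probe sets. Each of 18193 genes was represented by its brightest probe set, leaving aside the _x_at type, whose probes can match other transcripts, unless a gene had no other.

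Hippocampal markers were present in the 12 mice. On arrays whose values ran from 2.72 to 14.24, the mean over the 12 mice was 10.67 for Wfs1, a CA1 marker, 8.93 for Prox1, which marks dentate granule cells, 7.504 for Grik4, a CA3 marker, and 8.72 for the excitatory neuron gene Slc17a7.

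Several mice stood apart in markers of brain regions. The mean level of 27 striatal neuron markers was 8.80 in 7 d mouse 18, 9.11 in 7 d mouse 22 and 8.11 in 72 h mouse 16, against 7.38 to 7.48 in the other 72 h mice and 7.43 to 7.54 in the other 7 d mice. Gpr6, a receptor of striatal indirect-pathway neurons, stood at 8.53, 8.80 and 7.16 in those 3 mice and at 4.88 to 5.85 in the other 9. Mice 18 and 22 were also low for dentate granule cell markers, with mean levels of 8.28 and 8.19. Among the other 10 mice this mean ran from 9.86 to 10.53, except in 72 h mouse 24 at 8.89 and 7 d mouse 70 at 9.31. Dsp, a desmosomal gene strong in granule cells, stood at 6.22 and 6.01 in mice 18 and 22, at 9.63 in mouse 24, at 10.40 in mouse 70 and at 11.44 to 12.34 in the other 8 mice. CA1 markers ran from 9.32 to 10.41 at 72 h and from 8.00 in mouse 46 to 10.13 in mouse 70 at 7 d. The 2 groups thus differed in these region markers, and the limma differences between them were also computed without mice 18 and 22. Values of single genes and lists for the difference between the CIE and Ctrl changes are from the fit with all mice.

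**Figure D1:**
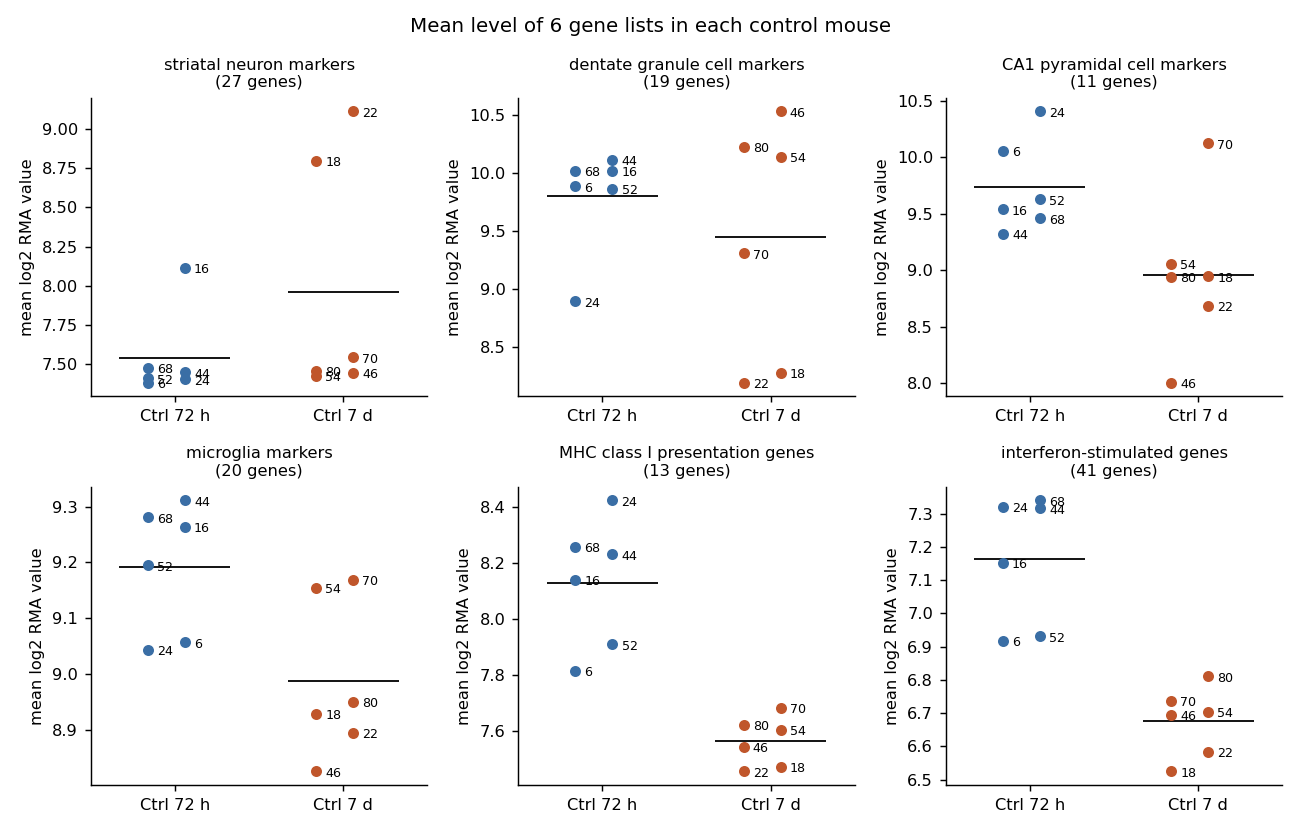
Mean log2 RMA value of 6 gene lists in each of the 12 Ctrl mice (points, labelled by mouse number; horizontal lines are group means of 6). Striatal markers were high in mice 16, 18 and 22, dentate markers low in mice 18, 22 and 24, and the means of the MHC class I and interferon-stimulated lists did not overlap between 72 h and 7 d.

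Between 72 h and 7 d, 36 probe sets were called, which is 0.0799% of those tested. Of these, 13 were higher at 7 d (0.0289%) and 23 were lower (0.0511%). Counted by gene, 19 genes were called (0.104%), 17 of them lower (0.0934%) and 2 higher (0.011%). At an adjusted p of 0.05, 468 probe sets (1.04%) and 194 genes (1.07%) passed, the genes being 171 lower (0.94%) and 23 higher (0.126%). At an unadjusted p under 0.05 there were 2786 genes (15.3%), 2303 lower (12.7%) and 483 higher (2.65%). In 30 of the 36 called probe sets every 7 d mouse lay on one side of every 72 h mouse. Over all genes, 131 were lower without overlap (0.72%) and 18 higher without overlap (0.0989%), and the median difference over all genes was -0.04. Of the 18193 genes, 12182 had a lower mean at 7 d and 6011 a higher one. Counts of lower members in the lists below are to be read against that share.

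These calls rested on the full set of mice. Without mice 18 and 22 no probe set was called, although 4364 (9.69%) still had an unadjusted p under 0.05 in the limma fit. All 36 kept their direction there, with unadjusted p of at most 0.00111, adjusted p from 0.0985 to 0.284 and differences 0.599 to 1.06 times those with all mice (median 0.868). The arrays also fell into 6 sets of shared values, whose origin the labels do not give, each with 1 mouse of either time. With these sets as a block again no probe set was called (6414, or 14.2%, at an unadjusted p under 0.05), and the adjusted p of the 36 ran from 0.0165 to 0.0232. Seen within the 6 sets, 33 of the 36 differed the same way in all 6. The 36 were chosen for their difference between these same mice. Their kept direction, their unadjusted p and their lack of overlap are therefore no separate evidence. Leaving out single mice also moved the count by more than 1.5 times: it was 0 without 72 h mouse 16 or 68 or without 7 d mouse 18 or 22, 1 without 72 h mouse 6 or 44 or 7 d mouse 54, 12 without 7 d mouse 46, 60 without 72 h mouse 24 and 450 without 7 d mouse 70.

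**Figure D2:**
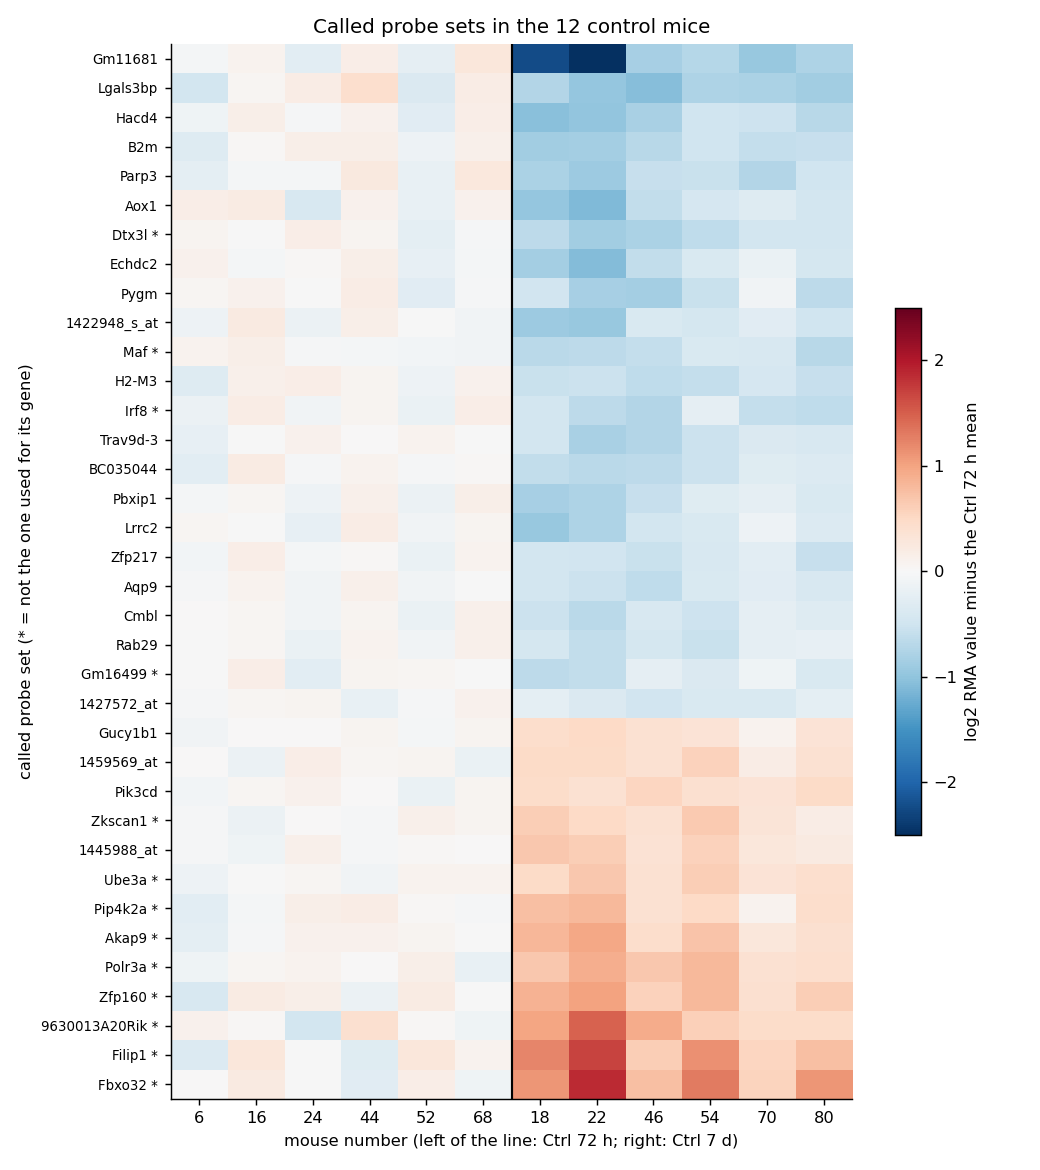
The 36 called probe sets (rows) in the 12 Ctrl mice (columns), as each log2 RMA value minus the Ctrl 72 h mean of that probe set, with red higher and blue lower. The 23 upper rows were lower and the 13 lower rows higher at 7 d, and mouse 22 departed farthest for Gm11681, Filip1 and Fbxo32.

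**Figure D3:**
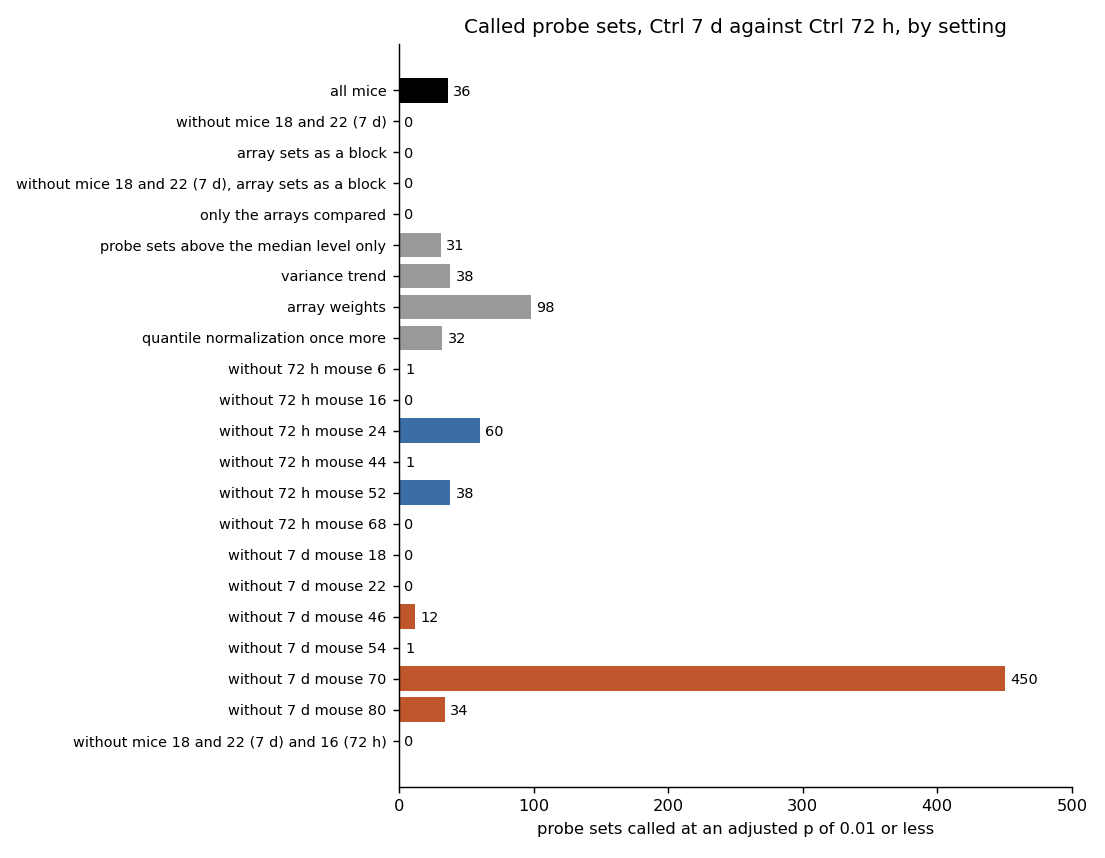
Number of probe sets called at an adjusted p of 0.01 or less between Ctrl 7 d and Ctrl 72 h in each setting (bars; blue leaves out a 72 h mouse, orange a 7 d mouse). The count was 36 with all mice, 0 without mice 18 and 22 or with the array sets as a block, and 450 without mouse 70.

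Genes of MHC class I presentation had lower means at 7 d. All 13 measured members of the list of 17 had a lower mean at 7 d, 2 were called lower against 0.0934% of all genes, 5 passed at an adjusted p of 0.05 against 0.94%, and 8 did not overlap between the groups against 0.72%. The median difference over the 13 was -0.55, against -0.04 over all genes, and it was -0.47 without mice 18 and 22. There, none was called, 12 had an unadjusted p under 0.05 (8.16% of all genes, lower), and 9 did not overlap (1.51% of all genes, lower). The mean level of the list was 7.81, 8.14, 8.43, 8.23, 7.91 and 8.26 in 72 h mice 6, 16, 24, 44, 52 and 68, and 7.47, 7.45, 7.54, 7.60, 7.68 and 7.62 in 7 d mice 18, 22, 46, 54, 70 and 80. The 7 d mice lay close together below all 72 h mice, with an SD of 0.0896 (n = 6) against 0.229 (n = 6).

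B2m, the shared light chain, was lower in the 7 d mice than in the 72 h mice. Its log2 value was 12.00, 12.34, 12.46, 12.45, 12.18 and 12.43 in the 72 h mice and 11.45, 11.47, 11.61, 11.81, 11.71 and 11.73 in the 7 d mice, each in the mouse order above. Every 7 d mouse was below every 72 h mouse, and the order held in each of the 6 array sets, with differences of -0.87 to -0.47. The difference was -0.68 ± 0.13 (SE, limma adjusted p = 0.0088), a 1.60-fold lower level, and -0.60 without mice 18 and 22 (adjusted p = 0.174). A second B2m probe set differed by -0.64 ± 0.14 (adjusted p = 0.018).

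H2-M3, a nonclassical class I heavy chain that presents N-formylated peptides, was the other member called. It stood at 7.43, 7.87, 7.91, 7.82, 7.62 and 7.86 at 72 h and at 7.20, 7.21, 7.11, 7.15, 7.34 and 7.17 at 7 d. The groups did not overlap, and the difference of -0.55 ± 0.11 (adjusted p = 0.009) was as large without mice 18 and 22, at -0.56 (adjusted p = 0.124).

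Heavy chains and peptide supply had the same direction without being called. H2-K1, a classical heavy chain, ran from 10.13 to 10.98 at 72 h and from 9.46 to 9.99 at 7 d, a difference of -0.88 ± 0.21 (adjusted p = 0.0272). Psmb9, an immunoproteasome subunit, differed by -0.85 ± 0.20 (adjusted p = 0.0272) and Erap1, which trims peptides in the endoplasmic reticulum, by -0.31 ± 0.08 (adjusted p = 0.0478). Nlrc5 had the widest gap of the list at -1.11 ± 0.31, with 5.74 to 7.23 at 72 h and 5.16 to 5.60 at 7 d, and an adjusted p of 0.0574. Psmb8 differed by -0.79, H2-D1 by -0.56 and the transporter subunit Tap1 by -0.54, each without overlap and at an adjusted p of 0.0533, 0.14 and 0.0861. Class I heavy chain genes are close in sequence, so their probe sets may share signal.

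The stretch before the transcription start of these genes is shown because interferon acts through short motifs there. RefSeq promoters (GRCm38.p6) gave a 250-base window for 10 of the 13 class I genes and for 29 of the 41 measured interferon-stimulated genes. Each window was searched on both strands for GAAANNGAAA, the core of the interferon-stimulated response element (ISRE), and for TTCNNNGAA, the core of the gamma-activated site (GAS). Matches are in capitals, the last base of each line lies next to the start, and all 5 genes are on the plus strand.
B2m (chr2:122147437-122147686): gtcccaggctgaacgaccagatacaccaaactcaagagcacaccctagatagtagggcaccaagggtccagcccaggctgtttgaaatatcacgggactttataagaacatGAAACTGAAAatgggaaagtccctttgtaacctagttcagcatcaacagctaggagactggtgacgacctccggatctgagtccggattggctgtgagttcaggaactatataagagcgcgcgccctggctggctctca
H2-M3 (chr17:37269984-37270233): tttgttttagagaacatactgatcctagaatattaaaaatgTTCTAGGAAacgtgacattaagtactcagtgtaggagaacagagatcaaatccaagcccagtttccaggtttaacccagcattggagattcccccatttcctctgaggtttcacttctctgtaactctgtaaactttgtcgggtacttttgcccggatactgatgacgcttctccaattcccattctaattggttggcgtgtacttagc
Irgm2 (chr11:58214727-58214976): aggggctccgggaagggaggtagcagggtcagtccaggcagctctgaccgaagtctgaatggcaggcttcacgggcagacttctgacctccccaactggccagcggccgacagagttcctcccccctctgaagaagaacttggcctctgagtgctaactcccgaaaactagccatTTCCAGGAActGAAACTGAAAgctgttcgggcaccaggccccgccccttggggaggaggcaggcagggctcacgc
Igtp (chr11:58199306-58199555): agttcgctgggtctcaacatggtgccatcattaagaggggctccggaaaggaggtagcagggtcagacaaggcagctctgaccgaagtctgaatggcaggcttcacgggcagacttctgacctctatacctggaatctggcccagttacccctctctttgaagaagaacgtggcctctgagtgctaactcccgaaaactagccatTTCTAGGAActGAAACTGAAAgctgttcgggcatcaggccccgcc
Gbp2 (chr3:142620413-142620662): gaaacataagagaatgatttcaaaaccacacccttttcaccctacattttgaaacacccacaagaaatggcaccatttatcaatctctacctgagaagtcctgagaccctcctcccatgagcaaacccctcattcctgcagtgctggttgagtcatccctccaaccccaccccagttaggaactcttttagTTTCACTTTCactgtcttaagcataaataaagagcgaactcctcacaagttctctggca

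B2m held an ISRE core whose first base lies 139 bases before the start, and H2-M3 held a GAS core at 209 bases. Irgm2 and Igtp, neighbours on chromosome 11 with similar windows, each held both motifs next to each other, at 64 and 75 bases in Irgm2 and at 34 and 45 in Igtp. The ISRE letters of B2m, Irgm2 and Igtp were identical, GAAACTGAAA, and Gbp2 held the motif on the opposite strand at 59 bases. Of all 32851 windows, 2.98% held the ISRE core and 7.02% the GAS core. Counted by gene, as in the lists below, these shares were 3.46% and 8.13% of 27025 genes. Among interferon-stimulated genes 15 of 29 held the ISRE core and 9 held the GAS core. In the class I list 1 of 10 genes held the ISRE core and 2, H2-M3 and Psmb8, held the GAS core. Of 18 called genes with a window, 2 held the ISRE core, B2m and Gm11681 (11.1%), and 1 held the GAS core, H2-M3 (5.56%). A match describes the letters and shows no binding.

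Interferon-stimulated genes outside class I presentation lay lower at 7 d as well. Of the 41 measured members of a list of 46, 38 had a lower mean and 3 a higher one. None was called, 27 had an unadjusted p under 0.05 and a lower mean (12.7% of all genes), 6 were lower at an adjusted p of 0.05 against 0.94%, and 13 did not overlap against 0.72%. The median difference was -0.48, and -0.38 without mice 18 and 22, where 20 had an unadjusted p under 0.05 against 8.16%. The mean level of the list ran from 6.92 to 7.34 at 72 h and from 6.53 to 6.81 at 7 d, so the groups did not overlap.

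The 6 members past 0.05 cover sensing, antiviral effectors and GTPases that act on membranes around intracellular microbes. Trim30a, an E3 ligase family member, ran from 6.93 to 7.53 at 72 h and from 6.25 to 6.71 at 7 d, a difference of -0.72 ± 0.15 (adjusted p = 0.0114). Parp9, an ADP-ribosyltransferase partner, differed by -0.58 ± 0.12 (adjusted p = 0.0155) and the double-stranded RNA sensor Ifih1 by -0.66 ± 0.15 (adjusted p = 0.0219). Rtp4 ran from 7.98 to 8.85 at 72 h and from 7.29 to 7.66 at 7 d, a difference of -0.93 ± 0.21 (adjusted p = 0.0232).

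Guanylate-binding proteins and immunity-related GTPases had the widest gaps. Gbp2 stood at 6.66, 6.92, 7.69, 7.05, 6.59 and 7.41 at 72 h and at 5.44, 6.02, 5.92, 5.88, 5.93 and 6.22 at 7 d, without overlap, and differed by -1.15 ± 0.30 (adjusted p = 0.0435). Irgm2 differed by -1.06 ± 0.28 (adjusted p = 0.0477), with the lowest 72 h mouse at 6.57 and the highest 7 d mouse at 6.58. Gbp6 at -1.41 ± 0.38 (adjusted p = 0.0516) and Igtp at -1.17 (adjusted p = 0.0594) were just outside. All 4 were highest in 72 h mouse 24, which also had the highest class I mean.

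The 3 members with a higher mean were Samd9l (0.13), Stat2 (0.03) and Mx1 (0.03), each smaller than its SE. Samd9l stood at 8.39 and 8.77 in mice 18 and 22, and its difference was -0.35 without them.

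**Figure D4:**
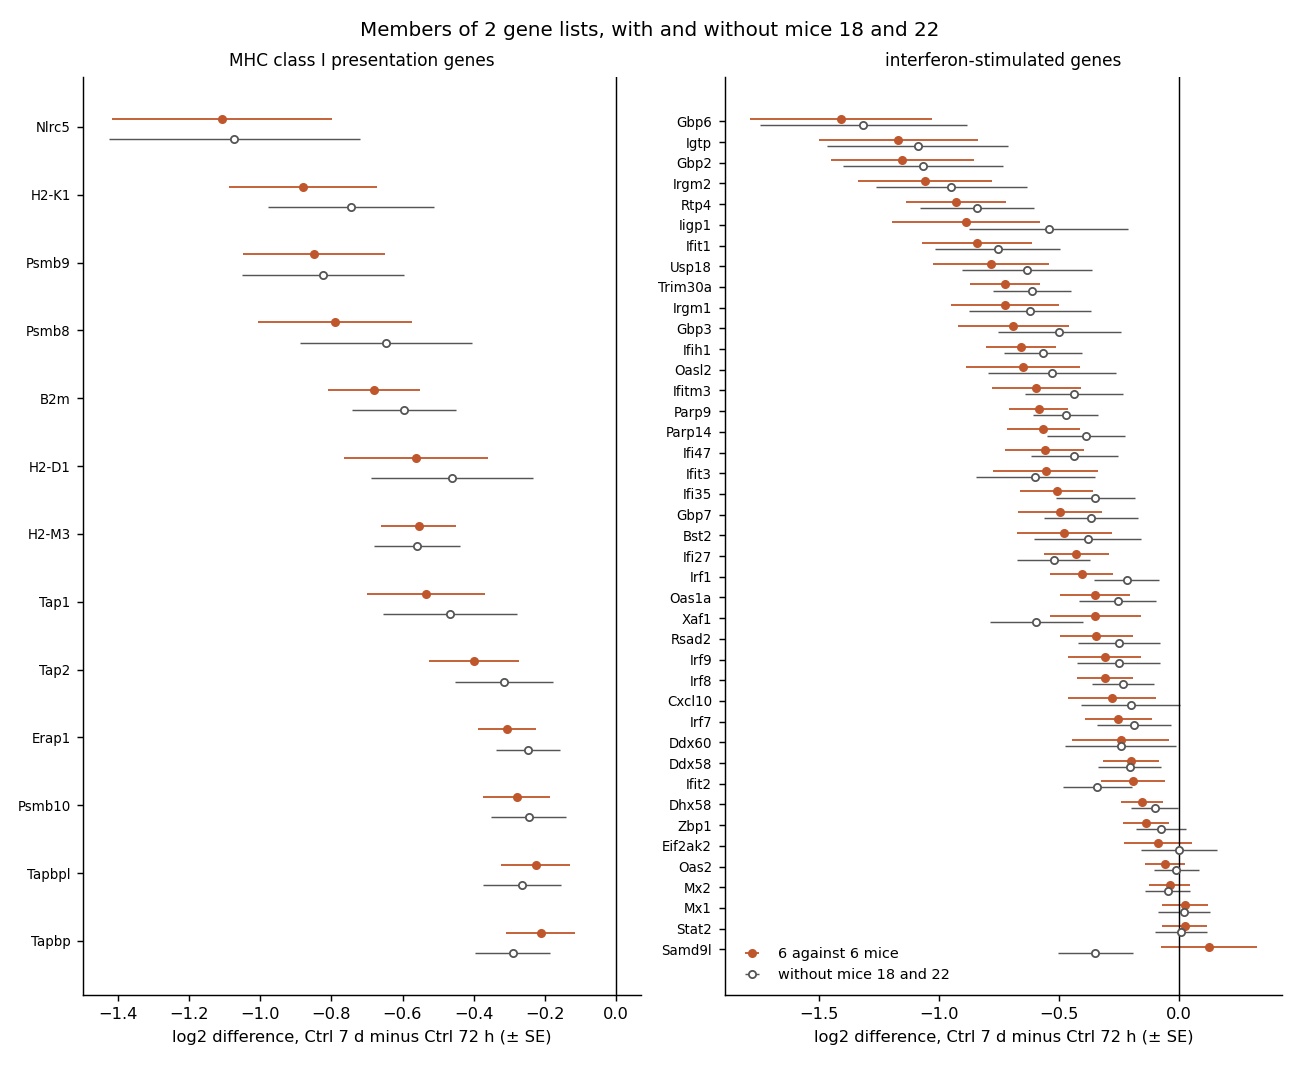
Log2 difference, Ctrl 7 d minus Ctrl 72 h, with its SE for the 13 MHC class I genes (left) and 41 interferon-stimulated genes (right), with 6 against 6 mice (filled) and without mice 18 and 22 (open). All 13 class I genes and 38 of 41 interferon-stimulated genes lie below 0 with all mice, and for most the open symbol lies nearer to 0.

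Microglia markers, too, had lower means at 7 d. Of 20 microglia markers 19 had a lower mean at 7 d, none was called, 1 was lower at an adjusted p of 0.05 against 0.94% of all genes and 13 had an unadjusted p under 0.05 against 12.7%, with a median difference of -0.24. Without mice 18 and 22 the median was -0.19 and 6 had an unadjusted p under 0.05 against 8.16%. The mean level of the list ran from 9.04 to 9.31 at 72 h and from 8.83 to 9.17 at 7 d, and these ranges overlapped. Tmem119, a marker of resident microglia, differed by -0.37 ± 0.09 (adjusted p = 0.0353), while P2ry12 and Cx3cr1, 2 others, differed by -0.09 and 0.08. The part of these cells in the class I and interferon results was not tested.

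Ptprc, the leukocyte antigen CD45, ran from 7.59 to 7.99 at 72 h and from 7.16 to 7.504 at 7 d, without overlap, a difference of -0.47 ± 0.10 (adjusted p = 0.02). The chemokine Ccl5 differed by -1.08 ± 0.25 (adjusted p = 0.0268), although Ctrl means at 0 h and 8 h, 6.21 and 6.48, were below both. Of 7 MHC class II genes 6 had a lower mean, none was called, and the median was -0.31. A probe set of Irf8, a transcription factor of myeloid cells and microglia, was called at -0.55 ± 0.11 (adjusted p = 0.0092), while the brighter Irf8 probe set differed by -0.31 ± 0.12 (adjusted p = 0.16). Blood cell markers had a median difference of 0.02.

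Astrocyte markers had a median difference of -0.20 with 12 of 18 lower at an unadjusted p under 0.05 against 12.7% of all genes. Gfap, the astrocyte filament gene, stood at 8.83 and 8.77 in mice 18 and 22 and at 10.25 to 11.30 in the other 10. Without those mice 3 of 18 had such a p against 8.16%, and the median was -0.08. Markers of meninges and fibroblasts had a median of -0.25 (-0.17 without) and those of choroid plexus and ependyma -0.06. Ttr, the transthyretin gene of choroid plexus, ran from 8.57 to 11.48 at 72 h and from 6.42 to 10.29 at 7 d.

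Of the 17 genes called lower, 15 were outside all lists, and several were enzymes. Hacd4, a dehydratase of very-long-chain fatty acid synthesis, had the smallest adjusted p of all genes (0.0034). It stood at 7.06, 7.32, 7.15, 7.27, 6.88 and 7.33 at 72 h and at 6.13, 6.19, 6.36, 6.67, 6.64 and 6.48 at 7 d, a difference of -0.76 ± 0.12. The groups did not overlap, and the difference without mice 18 and 22 was -0.63. Aox1, an aldehyde oxidase, stood at 8.48 to 9.08 at 72 h and at 7.77 to 8.55 at 7 d and differed by -0.65 ± 0.12 (adjusted p = 0.0085). Mice 18 and 22 were its 2 lowest, the groups overlapped, and without them the difference was -0.46.

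Pygm, the muscle-type glycogen phosphorylase that astrocytes also use, differed by -0.58 ± 0.11 (adjusted p = 0.0092), and every 7 d mouse but mouse 70 was below all 72 h mice. Echdc2, a mitochondrial protein with an enoyl-CoA hydratase domain, differed by -0.59 ± 0.12 (adjusted p = 0.0099), and by -0.40 without mice 18 and 22. The hydrolase Cmbl differed by -0.45 ± 0.08 (adjusted p = 0.0064). Aqp9, a channel for water and glycerol, ran from 6.24 to 6.46 at 72 h and from 5.69 to 6.05 at 7 d, without overlap. Its second probe set differed by -0.08 (adjusted p = 0.714).

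The widest gap of any called gene was that of Gm11681, a predicted gene. It stood at 8.75, 8.89, 8.54, 8.97, 8.59 and 9.09 at 72 h and at 6.56, 6.15, 7.98, 8.09, 7.86 and 8.04 at 7 d, so mice 18 and 22 lay far below the other 7 d mice, which were still below every 72 h mouse. The difference was -1.36 ± 0.24 (adjusted p = 0.0064) with all mice and -0.81 without those 2. Lgals3bp, a secreted galectin-binding glycoprotein, ran from 7.00 to 7.86 at 72 h and from 6.38 to 6.72 at 7 d, and its difference of -0.87 ± 0.17 (adjusted p = 0.0099) was -0.88 without mice 18 and 22.

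Parp3, an ADP-ribosyltransferase of DNA break repair, ran from 6.89 to 7.38 in the 72 h mice and from 6.22 to 6.63 in the 7 d mice, a difference of -0.68 ± 0.12 (adjusted p = 0.0064). Its other 2 probe sets differed by -0.39 and -0.19 and were not called. A probe set of Dtx3l, the E3 ligase that pairs with Parp9, was called at -0.65 ± 0.11, while its brighter probe set differed by -0.44 (adjusted p = 0.056). The other genes called lower were Pbxip1 (-0.51), which binds PBX homeodomain proteins, the zinc finger repressor Zfp217 (-0.46), the GTPase Rab29 (-0.42), the leucine-rich repeat gene Lrrc2 (-0.50), the T cell receptor segment Trav9d-3 (-0.55) and BC035044 (-0.52). Of these 6, only Lrrc2 overlapped between the groups, and there only through mouse 70. The other 4 Trav9d-3 probe sets differed by -0.32 to 0.20 and none was called, and second probe sets of Pbxip1 and Lrrc2 differed by -0.44 and -0.40 (adjusted p = 0.0166 and 0.173).

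Only 2 genes were called higher at 7 d. Pik3cd, the delta catalytic subunit of phosphoinositide 3-kinase, stood at 12.06, 12.16, 12.23, 12.13, 11.95 and 12.18 at 72 h and at 12.57, 12.50, 12.66, 12.51, 12.45 and 12.59 at 7 d. The groups did not overlap, and the difference was 0.43 ± 0.08 (adjusted p = 0.0085) and 0.44 without mice 18 and 22. The other 5 Pik3cd probe sets differed by -0.18 to 0.11 and none was called. Their mean levels were 3.775 to 7.178, far below that of the called probe set. Whether the called probe set reads the same transcript was not tested. Gucy1b1, the beta subunit of the nitric oxide receptor guanylate cyclase, ran from 10.71 to 10.86 at 72 h and from 10.89 to 11.30 at 7 d, a difference of 0.34 ± 0.06 (adjusted p = 0.0064). Its second probe set differed by 0.35 (adjusted p = 0.107).

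The other 11 probe sets called higher were not the one that represented a gene or had no single symbol. A probe set of Fbxo32, the muscle atrophy F-box gene, differed by 1.11 ± 0.22 (adjusted p = 0.009), and the brightest Fbxo32 probe set differed by 0.42 (adjusted p = 0.045). Probe sets of Filip1 (0.99), 9630013A20Rik (0.82), Zfp160 (0.71), Polr3a (0.64), Akap9 (0.61), Pip4k2a (0.49), Ube3a (0.48) and Zkscan1 (0.44) were called too. For most of these named probe sets the Ctrl mean at 0 h lay nearer to 7 d than to 72 h. Fbxo32 stood at 7.97 at 0 h, 6.97 at 72 h and 8.09 at 7 d, and Polr3a at 6.62, 5.90 and 6.55. Pip4k2a and 9630013A20Rik lay nearer to 72 h at 0 h. For Zkscan1, Polr3a, Pip4k2a, Zfp160 and Ube3a the brightest probe set of the gene differed by -0.08 to 0.11, so the gene's probe sets disagreed. A called probe set of Maf, a leucine zipper transcription factor, differed by -0.56 and the brightest Maf probe set by -0.12.

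Striatal neuron markers had a higher mean at 7 d in 27 of 27 members, with none called, 10 at an unadjusted p under 0.05 (2.65% of all genes) and a median difference of 0.43. Without mice 18 and 22 the median was -0.07, and without mouse 16 as well it was 0.04. The dopamine receptor gene Drd1 ran from 7.37 to 9.27 at 72 h and from 7.99 to 10.49 at 7 d, a difference of 1.09 ± 0.30 (adjusted p = 0.0516), which was 0.52 without mice 18 and 22. Gpr6 differed by 0.94 ± 0.42 (adjusted p = 0.247), and by -0.11 without them. Other members were Pde10a at 0.43, Rgs9 at 0.53, Oprk1 at 0.54, Ecel1 at 0.45 (-0.0209 without those mice), Arpp21 at 0.58 and Penk, the enkephalin precursor, at 0.62. The direction of this list thus rested on mice 18 and 22.

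CA1 pyramidal cell markers had a lower mean at 7 d in all 11 members, with none called and a median of -0.86, the lowest of the 52 lists. Of the 11, 6 were lower at an unadjusted p under 0.05 against 12.7% of all genes. The median was -0.50 without mice 18 and 22. That fit kept mice 46 and 70, the lowest and highest 7 d mice for the CA1 mean at 8.00 and 10.13. Mouse 46 also had the highest dentate mean, 10.53. Dentate granule cell markers had a median of -0.17, and 0.23 without those mice. Grp, the gastrin-releasing peptide gene, differed by -1.73 ± 0.35 (adjusted p = 0.0115), with 8.71 to 10.49 at 72 h and 6.50 to 8.87 at 7 d.

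Genes that respond to time of day, activity or stress hormone showed no call. In the circadian clock list of 21 genes the median was -0.03, and the widest of the smallest-p members were Rorb at 0.39 and Bhlhe40, a clock repressor, at -0.38 (adjusted p = 0.1). Arntl, the positive arm of the clock, differed by -0.15, Nr1d1 by -0.13, Nr1d2 by 0.08, Cry1 by 0.18, Ciart by 0.13 and Hlf by -0.21. Among 30 immediate early genes, which neuronal activity switches on, the median was -0.02. Nr4a2 differed by -0.75 (adjusted p = 0.055), Arc, which acts at active synapses, by -0.58 (adjusted p = 0.112), and Jun by -0.46, which turned to 0.17 without mice 18 and 22. Jund differed by 0.29, Nr4a3 by -0.37, Dusp6 by -0.32, Fosl2 by -0.30 and Ccn1 by -0.19.

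In the list of 28 glucocorticoid-responsive genes the median was -0.02 and none was called. Sgk1, a kinase induced by corticosterone, ran from 10.90 to 11.45 at 72 h and from 11.20 to 11.61 at 7 d, a difference of 0.37 ± 0.09 (adjusted p = 0.0373). The metallothionein Mt1 differed the other way, by -0.20 ± 0.05 (adjusted p = 0.027), and Mt2 by -0.22 (adjusted p = 0.059). Cebpd, a transcription factor of the acute-phase response, differed by -0.48, and by 0.31 without mice 18 and 22. Sult1a1 differed by -0.26, Arrdc3 by 0.15 (-0.015 without those mice), Lcn2 by 0.14 and Errfi1 by -0.10.

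Of the 52 lists, 51 held no called gene, and of the 980 genes in them B2m and H2-M3 were called. The list median lay within 0.1 of zero for 37 lists, below -0.1 for 13 and above 0.1 for 2, the striatal and the dopamine signalling genes, and its sign turned for 14 when mice 18 and 22 were left out. Oxidative phosphorylation subunits had a lower mean in 45 of 51 members, against 12182 of all 18193 genes. Their median was -0.06 against -0.04 over all genes, and none was called. Of the 51, 17 were lower at an unadjusted p under 0.05 against 12.7% of all genes, and 12 without mice 18 and 22 against 8.16%. Single members past an adjusted p of 0.05 included the proliferation gene Mki67 at 0.57 (adjusted p = 0.0283), the calcium-activated potassium channel Kcnn2 at -0.50 (adjusted p = 0.0453) and the glutathione transferase Gstm1 at -0.37 (adjusted p = 0.0453). Of 16 alcohol and aldehyde metabolism genes, 13 had a lower mean, none was called and 1 was lower at an adjusted p of 0.05. Their median was -0.14, and 8 were lower at an unadjusted p under 0.05 against 12.7% of all genes. Without mice 18 and 22 these were -0.10 and 4, against 8.16%.

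The same interval in CIE mice gave 3 called probe sets, all higher at 7 d (0.00666%). Over the 36 probe sets called in Ctrl mice, the CIE difference ran from -0.46 to 0.40 and had the Ctrl sign in 24, with a median of -0.07 for those lower in Ctrl mice and 0.06 for those higher. In the limma fit no probe set was called for a difference between the CIE and the Ctrl change, and 3789 (8.41%) had an unadjusted p under 0.05. The smallest adjusted p of that interaction was 0.0731, and 1851 genes (10.2%) had an unadjusted p under 0.05 there. The calls in Ctrl mice enter this interaction, so their interaction values are no separate evidence.

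B2m in CIE mice stood at 12.33 at 72 h and 12.11 at 7 d, a difference of -0.22, and the CIE and Ctrl changes did not pass the test of their difference (adjusted p = 0.455). The class I list mean (± SD, n = 6 mice) in Ctrl mice was, from high to low, 8.28 ± 0.49 for the 8 h group, 8.13 ± 0.23 for the 72 h group, 7.97 ± 0.28 for the 0 h group and 7.56 ± 0.09 for the 7 d group. In CIE mice the 8 h group stood at 9.10, the 0 h group at 8.64, the 72 h group at 8.09 ± 0.15 and the 7 d group at 7.91 ± 0.06. At 72 h the CIE and Ctrl means thus lay within 1 SD of each other, and the Ctrl mice at 7 d had the lowest mean of the 8 groups. Interferon-stimulated genes ran alike: Ctrl means were 7.14, 7.54, 7.16 and 6.68 at 0 h, 8 h, 72 h and 7 d in turn, and CIE means 7.69, 8.24, 7.11 and 6.94.

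In CIE mice 10 of 13 class I genes and 36 of 41 interferon-stimulated genes also had a lower mean at 7 d than at 72 h, with medians of -0.23 and -0.15 and no call. Over all genes, 11017 of 18193 had a lower mean at 7 d in CIE mice, with a median of -0.02. Microglia markers went the other way there: all 20 had a higher mean at 7 d, with a median of 0.14. For 17 of these 20 the interaction had an unadjusted p under 0.05 in the limma fit with all mice, against 10.2% of all genes, and for none was it called. Ptprc differed by 0.11 in CIE mice and by -0.47 in Ctrl mice (interaction adjusted p = 0.188).

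**Figure D5:**
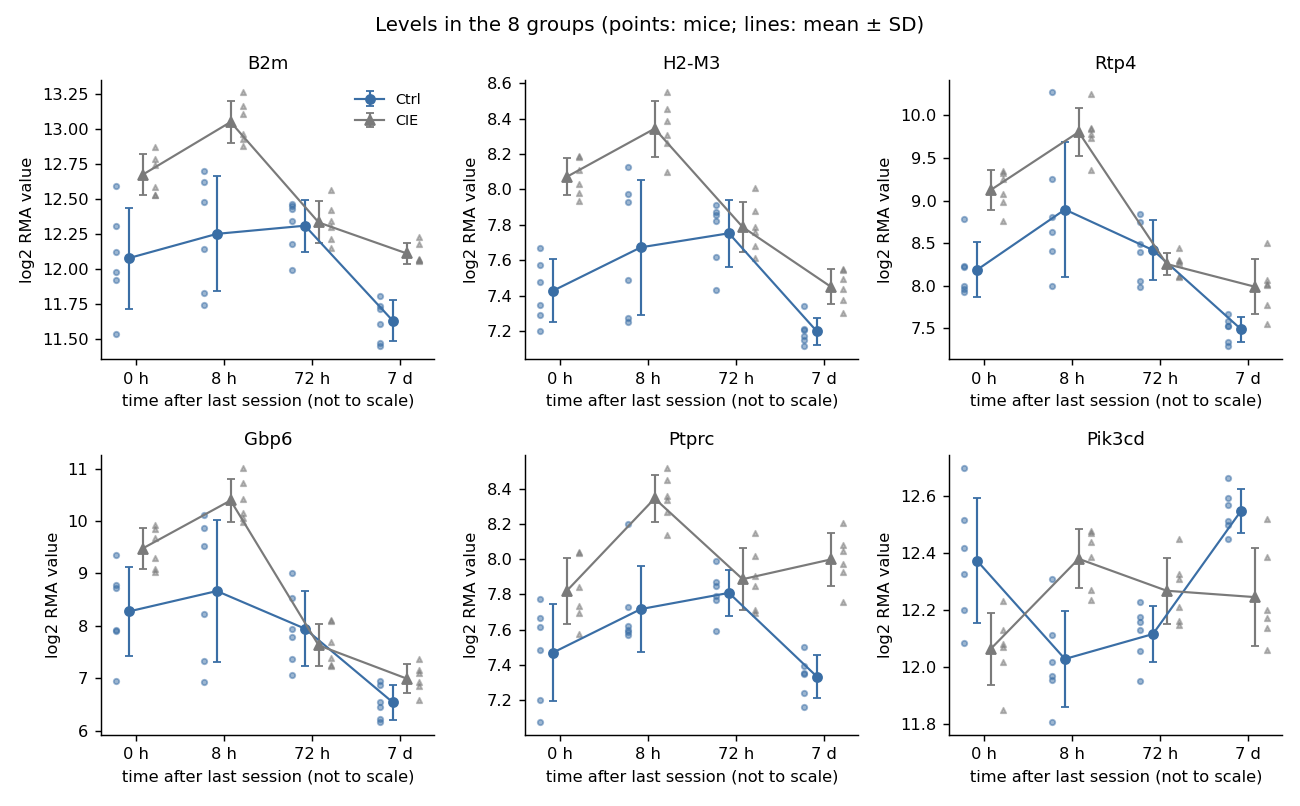
Log2 RMA value of 6 genes at 0 h, 8 h, 72 h and 7 d after the last session in Ctrl (blue circles) and CIE mice (grey triangles); small points are mice, large symbols group means with SD of 6 mice, and the time axis is not to scale. B2m, H2-M3, Rtp4, Gbp6 and Ptprc were lowest in Ctrl mice at 7 d and Pik3cd was highest there.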

How the data were processed

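Expression was measured on Affymetrix whole-genome mouse arrays, 1 per mouse. The authors deposited log2 RMA values: background correction and quantile normalization within each hybridization group, quantile normalization over all arrays, then ComBat with hybridization group as the batch (versions not given in the sources used here). ComBat and shared normalization can shrink or shift differences, and no scanner file was used here. Standard errors come from the spread between mice.

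A mean for each of 8 groups was fitted to the 48 arrays with limma 3.58.1 in R 4.3.3, and p-values were adjusted by Benjamini-Hochberg over 45037 probe sets. Symbols came from the platform annotation: 34945 probe sets had 1 symbol, 932 several and 9160 none. The probe set with the highest mean over all arrays stood for each of 18193 genes, passing over the _x_at type if another existed. Array sets were arrays sharing at least 5 values equal within 1e-08, and 47 arrays fell into 6 sets. The deposited values gave no scan date. Nothing in the labels ties a mouse to a litter, so litter was not in the fit. In the main fit the SE and p-values rest on the spread between mice within groups, pooled over all 8 groups.

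The comparison and the 52 gene lists were chosen with earlier results of these data known. Named genes were the 10 called genes with the highest and the 10 with the lowest change, 6 and 6 for the fit without mice 18 and 22, up to 4 called members of each list, and, for the clock, immediate early, glucocorticoid and striatal lists, as many as 8 members in order of p. Exceptions, chosen after their values were seen, were Grp, the other members of the class I, interferon, immune and glial lists, Zfp217, Aqp9, Cmbl, Rab29, Lrrc2, Pbxip1, BC035044, Gfap, Ttr, Dsp, Mki67, Kcnn2, Gstm1, and probe sets that did not represent their gene. Alternatives were leaving out mice, array sets as a block, fewer arrays in the fit, a filter on dim probe sets, an adjusted p of 0.05, a variance trend, array weights and repeated quantile normalization. The fit without mouse 16 as well was added after seeing the data.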

Additional observations from a re-analysis of the deposited data

Results flagged for a closer look

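A sample far from the rest of its group was looked for in 206 groups of 6 mice, comparing the gap to the nearest mouse with the group's range by Dixon's test, and 8 were found. Chance alone gives about 1 in 20, a share that 8 of 206 does not exceed. The 8 are also not all separate, since Gpr6 is in the striatal list and Cebpd in the glucocorticoid list. All 8 were in Ctrl mice at 72 h and concerned mouse 16 or 24.

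Mouse 16 stood above the other 72 h mice in 3 of them. Its mean of striatal neuron markers was 8.11 against 7.38 to 7.48 (gap over range 0.871). Its Gpr6 value was 7.16 against 4.88 to 5.54 (0.711), and its mean of lateral septum and basal forebrain markers was 6.38 against 6.17 to 6.24 (0.693).

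Mouse 24 stood apart in the other 5. Its mean of dentate granule cell markers was 8.89 against 9.86 to 10.11 (0.795), and its mean of interneuron markers was 9.31 against 9.06 to 9.12 (0.728). It was low for Cebpd, 9.16 against 9.86 to 10.09 (0.762), for the mean of glucocorticoid-responsive genes, 9.35 against 9.48 to 9.53 (0.676), and for the mean of chromatin and DNA methylation genes, 9.47 against 9.484 to 9.495 (0.627). Mice 18 and 22 at 7 d were not found by this rule for striatal markers, since each lies near the other.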

How the results depend on the processing

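The 36 called probe sets and 19 called genes became 0 and 0 without mice 18 and 22, with the array sets as a block, with both, with only the control arrays of the 2 times in the fit, and without mice 18, 22 and 16 (added after seeing the data). At an unadjusted p under 0.05 these limma fits still held 1815, 2424, 1573, 2254 and 1488 genes, against 2786. At an adjusted p of 0.05 there were 468 probe sets and 194 genes, and array weights gave 98 and 41. The filter on dim probe sets (31 and 21), the variance trend (38 and 21) and repeated quantile normalization (32 and 17) stayed within 1.5 times. Leaving out 1 mouse at a time gave 0 to 450 probe sets and 0 to 198 genes, with 450 and 198 without 7 d mouse 70. The interaction had 0 calls in every setting run. The cause of these shifts was not tested.

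Of the 44 genes named by rule, 5 turned sign without mice 18 and 22: Ecel1 (-0.0209), Gpr6 (-0.11), Jun (0.17), Cebpd (0.31) and Arrdc3 (-0.015). With the array sets as a block as well these were -0.0581, -0.21, 0.24, 0.40 and -0.0406, and Errfi1 stood at 0.0155. Without mouse 16 too, Jun stood at 0.21, Cebpd at 0.34, Arrdc3 at -0.0101 and Errfi1 at 0.0016. No paired analysis was possible because the replicate numbers in the labels are mouse numbers that the groups do not share, and the array sets, found from the values, served as the block above.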
